A study of Mus musculus with 3 samples.

Results

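The comparison set the bone marrow of Trim59 knockout mice with osteomyelitis (cko_om) against that of flox mice with osteomyelitis (flox_om). Every barcode of these 2 libraries with 500 to 5000 detected features was used, a feature being a row of the count table with at least 1 unique molecular identifier (UMI, a tag that marks 1 captured RNA molecule) in that barcode. This kept 18721 barcodes, 9207 of cko_om and 9514 of flox_om, out of 31650 in the 3 tables of the series. The flox_om mice carried the genotype WT and had received S. aureus. The cko_om mice were labelled as a Trim59 knock out, conditional by the series description, and had also received S. aureus. The remaining library, flox_ctrl, came from WT flox mice given PBS, and its values stand beside the others as a background. In all 3, marrow was flushed from the femurs after 2 weeks and sequenced with a droplet-based 3' kit, and the labels put the libraries in the same batch. The Cre line, the cells in which Trim59 was deleted and the number of mice per library are not given in the sources used here.

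Trim59 encodes a member of the tripartite motif family, proteins with a RING domain that attach ubiquitin to other proteins and so mark them for degradation or signalling. Several members of the family act in the innate immune signalling of myeloid cells. Staphylococcus aureus is the commonest cause of osteomyelitis, an infection in which neutrophils, monocytes and macrophages gather in the marrow while bone is lost. Bone marrow also holds the precursors of these cells, together with B cells, erythroid cells and others.

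The tables do not pair their rows with gene names or identifiers. Features are therefore described by their counts, the level of Trim59 itself could not be read, no marker of bone marrow or of any cell type could be checked, and no cluster was given the name of a cell type. There was 1 library on each side, so every value below describes these libraries. Genotype and library cannot be told apart, no test was possible, and the intervals cover counting error only, not the difference between mice. In summed counts, fewer cells of a type and less RNA per cell cannot be told apart.

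The libraries were of like depth. The kept barcodes held 68742171 UMIs in flox_om, 64806373 in cko_om and 61558339 in flox_ctrl, with medians of 4215, 4074 and 4526 UMIs per barcode. Both osteomyelitis libraries lost similar shares of their barcodes to the limits on detected features, 86.7% of flox_om and 87.0% of cko_om being kept, against 92.2% of flox_ctrl. The shallow end differed more. Barcodes with fewer than 2000 UMIs made up 6.52% of flox_om (95% Clopper-Pearson interval 6.03 to 7.03) and 11.5% of cko_om (10.9 to 12.2), while barcodes with 20000 UMIs or more made up 6.61% and 6.64%. The osteomyelitis tables shared 27 barcode sequences, which is 0.246% of those in flox_om and 0.255% of those in cko_om, and 27 were also shared by flox_ctrl and flox_om.

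Barcodes of the knockout library detected slightly more features at the same depth. Their median was 1240 detected features in cko_om and 1148 in flox_om, against 1359 in flox_ctrl. Thinning every barcode to 1000 UMIs left out 31 shallower barcodes of cko_om, 12 of flox_om and 75 of flox_ctrl. The medians were then 421 in cko_om, 396 in flox_om and 477 in flox_ctrl. Over all its barcodes the knockout library thus lay between the other libraries. Within most of the clusters described next, the thinned medians of flox_om and cko_om were closer, at 369 and 363 for cluster 1, 358 and 360.5 for cluster 3 and 621 and 630 for cluster 5. The direction varied: the thinned median of cko_om was lower in clusters 1, 4, 8, 9 and 13 and higher in the others. The widest gaps were those of cluster 12, with 549 and 598.5, and of cluster 10, with 559 and 588.5.

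The knockout library held more barcodes of some clusters and fewer of others. Both osteomyelitis libraries were clustered together on their 3000 most variable features, which gave 13 clusters numbered by size, and flox_ctrl barcodes were placed in the cluster of their nearest neighbours. The share of cko_om was higher in 6 clusters and lower in 3, with intervals that did not overlap, and the intervals overlapped in 4. Added up, 19.7 percentage points of the barcodes lay in other clusters in one library than in the other.

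The ratio of shares was largest for cluster 6. It held 3.11% of flox_om barcodes (2.77 to 3.48) and 8.73% of cko_om barcodes (8.16 to 9.33), against 15.7% of flox_ctrl. The share was 2.81 times as high in the knockout library, a difference of 5.62 points (4.95 to 6.30). Within the cluster the libraries were close to mixed: 73.2% of the 30 nearest neighbours of a cko_om barcode there came from cko_om, which itself supplied 73.1% of the barcodes of the cluster. For flox_om the values were 30% and 26.9%. Of the 4744 features compared inside the cluster, 37 were 2-fold apart in either direction (0.780%). Clusters 7, 8, 9 and 13 differed in the same direction. With barcodes thinned to 1000 UMIs, and with flox_ctrl clustered in, the largest part of cluster 8 fell with cluster 5. That shared cluster differed by -1.09 and -1.03 points. Cluster 8 held 2.52% of flox_om and 3.63% of cko_om, beside 7.58% of flox_ctrl. Cluster 9 held 1.85% and 3.25%, beside 2.31% of flox_ctrl, and cluster 13 held 0.662% and 1.13%, beside 3.37%. Cluster 7 held 5.0% and 6.09%, beside 6.54%. The flox_ctrl share was the highest of the 3 for every one of these clusters except cluster 9, where it lay between the others. Its interval overlapped that of cko_om for cluster 7 and that of flox_om for cluster 9.

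Clusters 1 and 2 together took 4.53% of flox_ctrl barcodes. Every flox_ctrl barcode was placed in some cluster, however unlike it was. In cluster 1 the flox_ctrl median was 554.5 detected features at 1000 UMIs, against 369 in flox_om and 363 in cko_om. In cluster 2 the values were 570.5, 458 and 468. Together these clusters held 48.5% of flox_om (47.5 to 49.5) and 43.4% of cko_om (42.4 to 44.4). The balance between them differed more than the sum did. Cluster 1 held 39.4% of flox_om and 24.4% of cko_om, a difference of -14.9 points. Cluster 2 held 9.08% and 19.0%, a difference of 9.87 points. Many features differed between the libraries inside these clusters, as given below, and such features also took part in drawing the border. When the 903 features that were 2-fold apart within any cluster were left out before clustering, the cluster that took most of cluster 1 held 41.1% of flox_om and 28.7% of cko_om, and the one that took most of cluster 2 held 8.84% and 15%. With 30 principal components instead of 15 the differences were -2.89 and -2.46 points, so the balance between these clusters depended on how the clusters were drawn. The difference in cluster 6 without the 903 features was 5.59 points.

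Clusters 4 and 5 were lower in cko_om. Cluster 4 held 13.9% of flox_om and 10.6% of cko_om, a difference of -3.36 points, and cluster 5 held 6.44% and 5.29%, a difference of -1.15 points. They held 23.2% and 7.62% of flox_ctrl, so here cko_om lay further from flox_ctrl than flox_om did. The intervals overlapped for cluster 3 (13.2% and 13%), cluster 10 (2.13% and 2.16%), cluster 11 (1.57% and 1.68%) and cluster 12 (1.14% and 1.10%). Clusters 2 and 10 were nearly empty of flox_ctrl barcodes, at 0.150% and 0.0215%. For cluster 10 the osteomyelitis libraries differed by 0.0277 points (-0.388 to 0.443).

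**Figure D1:**
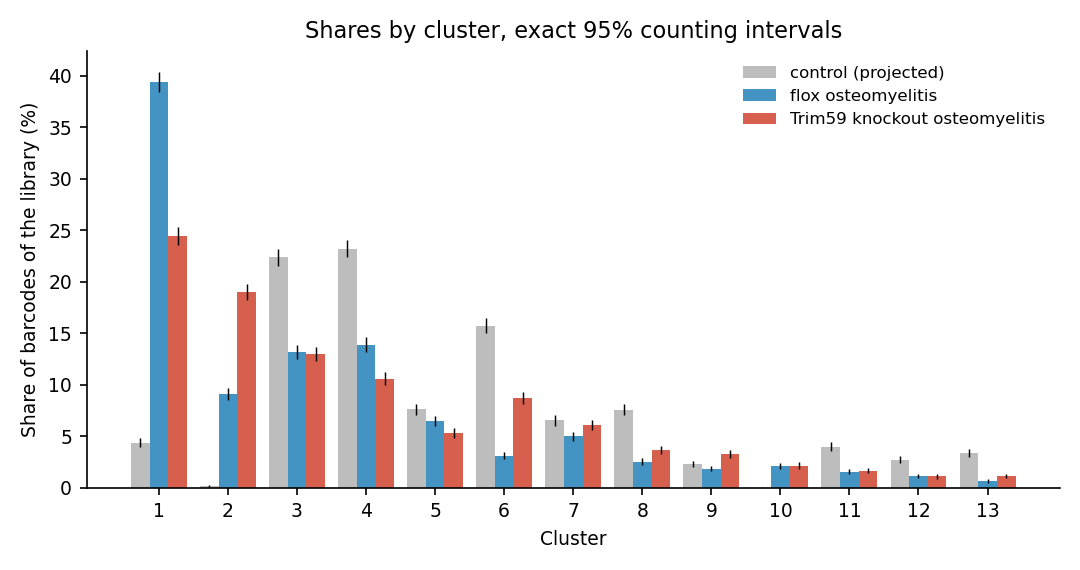
Share of the barcodes of each library (percent, vertical axis) in each of the 13 clusters (horizontal axis) for flox_ctrl, flox_om and cko_om, with exact 95% counting intervals. Cluster 6 stands at 3.11% in flox_om and 8.73% in cko_om, and cluster 1 at 39.4% and 24.4%.

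Beyond shares, barcodes lay nearer to barcodes of their own library than a full mixture would give. Of the 30 nearest neighbours of a flox_om barcode, 62.2% were flox_om, where a full mixture would give 50.8%. For cko_om the values were 57.7% and 49.2%. Unequal cluster shares raise these values by themselves. They were therefore also averaged by cluster, against the share of the cluster that the library supplied. Neighbours could lie in any cluster, so the shares of adjoining clusters, such as 1 and 2, still enter. For flox_om the excess was largest in cluster 2, at 61.9% against 33.1%, followed by cluster 10, at 69.9% against 50.5%. For cko_om it was largest in cluster 1, at 50.5% against 37.5%. The libraries were mixed in cluster 11, where flox_om barcodes had 48.5% against 49.0%, and likewise in cluster 13, with 36.7% against 37.7%.

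Transcript levels were close for nearly all features. UMIs were summed over barcodes and expressed as CPM, that is, scaled to a common total per library, and a feature counted as past 2-fold where the log2 ratio of CPM + 1 of cko_om over flox_om was at least 1 or at most -1. Of 11921 features with at least 100 UMIs in the 2 libraries together, 114 were higher in cko_om (0.956%) and 40 were lower (0.336%). The median log2 ratio was 0.12, 93.6% of the features lay within 0.5 of it, and 17 features were more than 4-fold higher and 15 more than 4-fold lower. With the median ratio set to 0 the counts became 81 and 57, so the split between directions depended on the scaling. The counts were 27 and 10 with a larger pseudocount of 10 CPM, and 300 and 25 when barcodes were weighted equally. The 2 most abundant features, which together took 20.3% of flox_om UMIs and 20.1% of cko_om UMIs, differed little: the first stood at 102178 CPM in flox_ctrl, 106033 in flox_om and 111679 in cko_om, and the second at 86905, 97127 and 89094. Among the 126 features at 1000 CPM or more, 1 was past 2-fold, and it was lower.

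**Figure D2:**
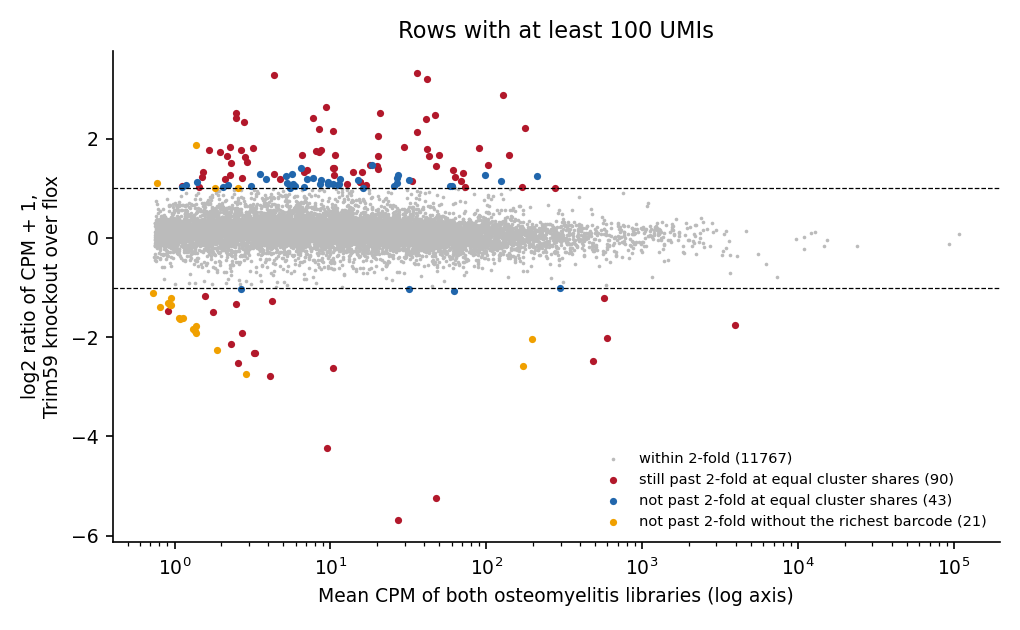
log2 ratio of CPM + 1 of cko_om over flox_om (vertical axis) against the mean CPM of both libraries (log axis) for the 11921 features with at least 100 UMIs, with dashed lines at 2-fold. The 114 features above the upper line and the 40 below the lower line are coloured by whether they stayed past 2-fold at equal cluster shares and without the barcode richest in them.

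The features past 2-fold were of 3 kinds, a division made after their values were seen. Some dropped below 2-fold once the single barcode richest in them was left out of each library, whatever share of their UMIs it held. Others dropped below it once both libraries were given the same cluster shares. The rest stayed past 2-fold at equal shares. The kinds were assigned in this order, so a feature of the first kind could also drop below 2-fold at equal shares. The 4 higher features of that kind had log2 ratios from 0.54 to 1.91 at equal shares. The 114 higher features divided into 4, 39 and 71 of these kinds, and the 40 lower features into 17, 4 and 19. Equal cluster shares alone left 73 higher and 36 lower features past 2-fold. With clusters drawn without the features that differed within clusters, 73 and 32 were left, so part of the lower division depended on the clustering.

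The 71 higher features that stayed past 2-fold at equal cluster shares had a median log2 ratio of 1.63, with median levels of 5.56 CPM in flox_om, 17.6 in cko_om and 5.72 in flox_ctrl. These features were chosen by the ratio itself. The medians of flox_om and flox_ctrl were close, but single features differed both ways, and 25 of the 71 stood higher in flox_om than in flox_ctrl. The 2 features with the largest ratios among those with at least 1000 UMIs were of this kind. Row 5593 of the tables stood at 2.62 CPM in flox_ctrl, 5.75 in flox_om and 66.4 in cko_om, from 161, 395 and 4302 UMIs. It was found in 2.63% of flox_om barcodes and 18.3% of cko_om barcodes, and after thinning to 1000 UMIs in 0.916% (0.734 to 1.13) and 8.98% (8.40 to 9.58). Its log2 ratio was 3.32 with the pseudocount and 3.53 without it (counting interval 3.38 to 3.68). It was past 2-fold in each of the 5 clusters in which it had at least 100 UMIs, with the largest ratio in cluster 1, at 16.3 CPM in flox_om and 255 in cko_om. High cko_om counts helped to meet this limit, so it favours such clusters. Below it, the feature was within 2-fold in cluster 9, at a log2 ratio of 0.92, and past 2-fold in the rest, from few UMIs. Its level was highest in cluster 2, at 30.4 and 342 CPM, and cluster 5 gave 3.0 and 26.1. Free RNA puts stray UMIs into barcodes of every cluster. In cluster 4, which had the lowest flox_om share above 0, a UMI of this feature was found in 0.0754% of flox_om barcodes and 1.85% of cko_om barcodes. The median depths there were 4975.5 and 5236.5 UMIs. The flox_om share was 1 UMI in 1 barcode, and picking the cluster by that share widens the contrast.

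Row 25514 had a similar pattern, with 2.29 CPM in flox_ctrl, 7.39 in flox_om and 76.1 in cko_om, from 141, 508 and 4934 UMIs. It was detected in 3.48% of flox_om and 16.4% of cko_om barcodes, and after thinning in 0.947% and 8.30%. In cluster 3, likewise picked for the lowest flox_om share above 0, 0.878% of flox_om and 6.37% of cko_om barcodes had a UMI of it. For cluster 4 the shares were 0.905% and 1.85%. The log2 ratio was 3.20 with the pseudocount and 3.36 without (3.23 to 3.50). It too was past 2-fold in the 5 clusters in which it had at least 100 UMIs, a limit that high cko_om counts helped to meet. Below the limit, the feature was within 2-fold in clusters 8 and 4, at log2 ratios of 0.22 and 0.73. It was past 2-fold in the rest, from few UMIs. In cluster 10 it stood at 22.2 CPM in flox_om and 385 in cko_om, and in cluster 2 at 47.3 and 496. Neither feature rested on a few barcodes, since the richest cko_om barcode held 0.442% of the UMIs of row 5593 and 1.07% of those of row 25514.

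Other abundant features of this kind, named here by rank only, were higher in many clusters at once. The higher feature with the most UMIs was also higher in both osteomyelitis libraries than in the control, at 5.36 CPM in flox_ctrl, 182 in flox_om and 368 in cko_om. Its log2 ratio was 1.01 (0.98 to 1.05 without the pseudocount), and it was past 2-fold in 7 of the 12 clusters where it could be read, with 897 and 1920 CPM in cluster 2. Another had 651, 2054 and 14663 UMIs in flox_ctrl, flox_om and cko_om and a log2 ratio of 2.88. It was higher in 7 of 10 clusters, with 82.0 and 676 CPM in cluster 1 and 99.9 and 1307 in cluster 2. A further one, with 3964, 4311 and 19001 UMIs, was most abundant in cluster 9 for flox_om and in cluster 10 for cko_om. It stood at 1710 and 1887 CPM in cluster 9, at 312 and 3625 in cluster 10 and at 130 and 656 in cluster 5. 

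The 39 higher features that dropped below 2-fold at equal cluster shares had a median log2 ratio of 1.11, and of 0.64 at equal shares, with a range from -0.13 to 0.99. Of the 39, 12 were past 2-fold in at least 1 cluster. They had a median of 14.4 CPM in flox_ctrl, 5.11 in flox_om and 12.5 in cko_om. For 16 of them cluster 6 held the largest share of their UMIs, and clusters 8 and 9 did so for 6 each. The drop by which they were chosen favours clusters with a larger share in cko_om. The same count over all features is not given, so these numbers only describe the 39. The one with the second most UMIs, near the low end of that range, stood at 3029 CPM in flox_om and 3338 in cko_om within cluster 6, a log2 ratio of 0.14, while over all barcodes its ratio was 1.15, and at equal cluster shares it was -0.02.

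The lower features were few, and many of them rested on single barcodes. Of the 40, 31 had more than 10% of their flox_om UMIs in 1 barcode and 23 had more than 50%. The median share of UMIs in the richest barcode was 60.0% for the lower features and 1.70% for the higher ones. Without the richest barcode 23 of the 40 lower features and 110 of the 114 higher ones remained past 2-fold. The 17 that did not remain had 10 different richest barcodes, 8 of them in cluster 12 and 2 in cluster 10. The 2 features with the smallest ratios stayed past 2-fold without it, though few barcodes held nearly all of their UMIs too. Row 9357 stood at 0.227 CPM in flox_ctrl, 54.4 in flox_om and 0.0772 in cko_om, from 14, 3743 and 5 UMIs. Of the 3743, a single flox_om barcode of cluster 12 held 3101 (82.8%). A single flox_om barcode of cluster 10 held a further 621. The feature was found in 22 flox_om barcodes and 5 cko_om barcodes. Its log2 ratio was -5.69, and -3.29 without the richest barcode of each library. Row 19984 stood at 1.33, 93.7 and 1.5 CPM, and a single flox_om barcode held 5457 of its 6440 UMIs (84.7%), with 845 more in 3 barcodes of cluster 10. It was detected in 1.33% of flox_om and 0.967% of cko_om barcodes, and its log2 ratio was -5.24, or -2.64 without the richest barcodes.

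**Figure D3:**
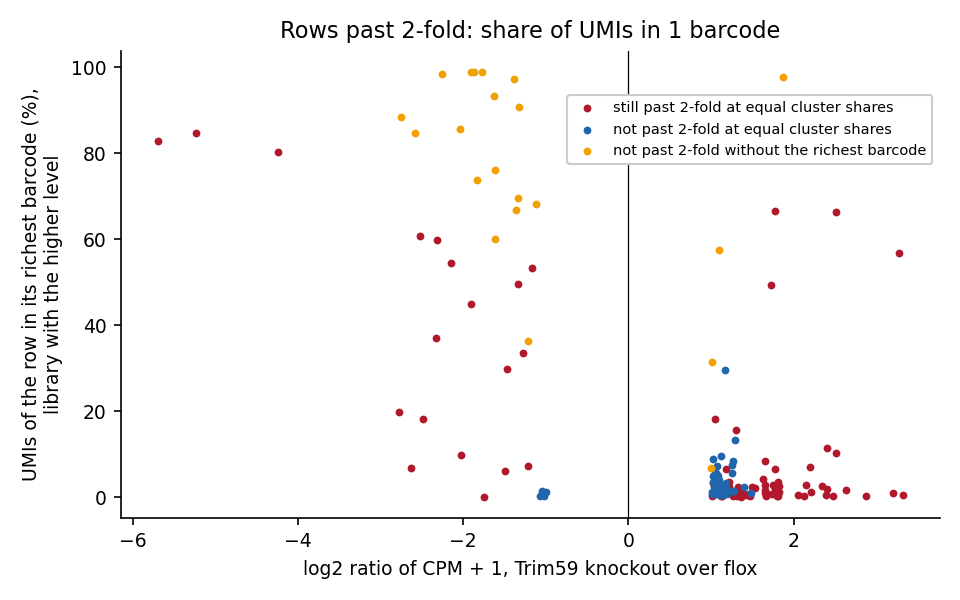
Share of the UMIs of a feature held by its richest barcode in the library where it was higher (percent, vertical axis) against its log2 ratio of CPM + 1 (horizontal axis) for the 154 features past 2-fold. The lower features have a median share of 60.0% and the higher ones of 1.70%.

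One lower feature was of another order. The most abundant of the 40 was lower over all barcodes, with 7795 CPM in flox_ctrl, 6102 in flox_om and 1814 in cko_om. It had 479876, 419478 and 117547 UMIs, and its log2 ratio was -1.75 (-1.76 to -1.74). It was detected in 81.5% of flox_ctrl barcodes, 73.0% of flox_om barcodes and 51.3% of cko_om barcodes, and its richest barcode held 0.187% of its UMIs. It was past 2-fold in 11 of the 13 clusters. Its highest level was in cluster 5, at 15046 CPM in flox_om and 4740 in cko_om, and cluster 3 had 9698 and 2764. The log2 ratio was furthest from 0 in cluster 4, at -2.25. It was within 2-fold for cluster 9, at -0.62, and for cluster 10, where 4226 and 3392 CPM gave -0.32. At equal cluster shares the ratio over all barcodes was -1.73. In clusters 1, 6, 9, 11, 12 and 13 its flox_om level was 494 CPM or less, and the part of free RNA in the ratios of such clusters was not tested. Among the lower features that stayed past 2-fold at equal shares, the next by UMIs was concentrated in cluster 12, at 28818 CPM in flox_om and 10651 in cko_om there. Cluster 12 did not stay together when clusters were drawn otherwise, as given below, so its mix of barcodes may differ between the libraries. The feature was past 2-fold in each of the 8 clusters where it had at least 100 UMIs. Below that limit it was within 2-fold in clusters 9 and 11, at log2 ratios of -0.23 and -0.30, and past 2-fold in the rest. Its richest barcode held 9.87% of its UMIs, and free RNA from such barcodes was not separated from expression in the other clusters.

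Within clusters, features were compared in the same way wherever a cluster gave a feature at least 100 UMIs. The percentages past 2-fold in either direction were largest in clusters 10, 2, 12 and 1, at 6.25%, 4.93%, 4.64% and 3.91%. In cluster 10, 235 features were higher in cko_om and 97 lower, although its share of barcodes did not differ. In cluster 2, 218 were higher and 39 lower. Cluster 1 was balanced, with 101 higher and 103 lower, and cluster 12 had 105 and 38. These splits depended on the scaling in all but cluster 2, as did the order of clusters 12 and 1. Cluster 12 also did not stay together when clusters were drawn otherwise, as given below. The median log2 ratio of cluster 10 was 0.16, and with that median set to 0 the counts were 161 higher and 146 lower. For cluster 12 the median was 0.26 and the counts became 44 and 56. For cluster 1 it was -0.13, and they became 122 and 59. Cluster 2 had a median of 0.01 and counts of 215 and 40.

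The other clusters had smaller percentages past 2-fold, of 1.26% for cluster 11, 0.943% for cluster 9, 0.926% for cluster 3 and 0.892% for cluster 4. They were 0.848% for cluster 5, 0.676% for cluster 8, 0.499% for cluster 13 and 0.416% for cluster 7. Clusters 3 and 5 were uneven, with 53 features higher and 9 lower in the former and 58 and 9 in the latter. Cluster 7, the deepest per barcode with a median of 24235 UMIs in flox_om and 21776 in cko_om, had 20 higher and 12 lower.

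More features were higher in several clusters than were lower in several. Over all clusters 916 of 68433 pairs of a feature and a cluster were higher and 407 lower. Of the features higher in at least 1 cluster, 439 were so in 1 cluster, 88 in 2 and 70 in 3 or more. For lower features the numbers were 296, 29 and 10. In clusters 1 and 2 the same 77 features were higher, 76.2% of the higher features of cluster 1 and 35.3% of those of cluster 2. Both clusters could be read for 4615 features. Of all features compared in each, 1.93% were higher in cluster 1 and 4.18% in cluster 2. These clusters are divided from each other by a border that moved with the settings.

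The 23 features higher in 5 or more clusters were chosen by that count, so their values describe them. Their median log2 ratio was largest in cluster 2, at 3.36, where 20 of the 23 were past 2-fold. It was 2.21 for cluster 1, 1.76 for cluster 3, 1.60 for cluster 10 and 1.49 for cluster 5. At the other end were cluster 11, with a median of 0.33, and cluster 9, with 0.35 and 4 past 2-fold of the 16 that could be read. Over all barcodes 16 of the 23 were past 2-fold. One of them, with 2704 UMIs in flox_om and 9075 in cko_om, was past 2-fold in 9 of 13 clusters. It stood at 1.75 and 23.0 CPM in cluster 3 and at 12.2 and 91.5 in cluster 7. Cluster 9, where it was most abundant, gave 922 and 883, and this cluster held 1.85% of flox_om and 3.25% of cko_om barcodes. Free RNA was not separated from expression for these 23 features, and its part in their counts over clusters was not tested.

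**Figure D4:**
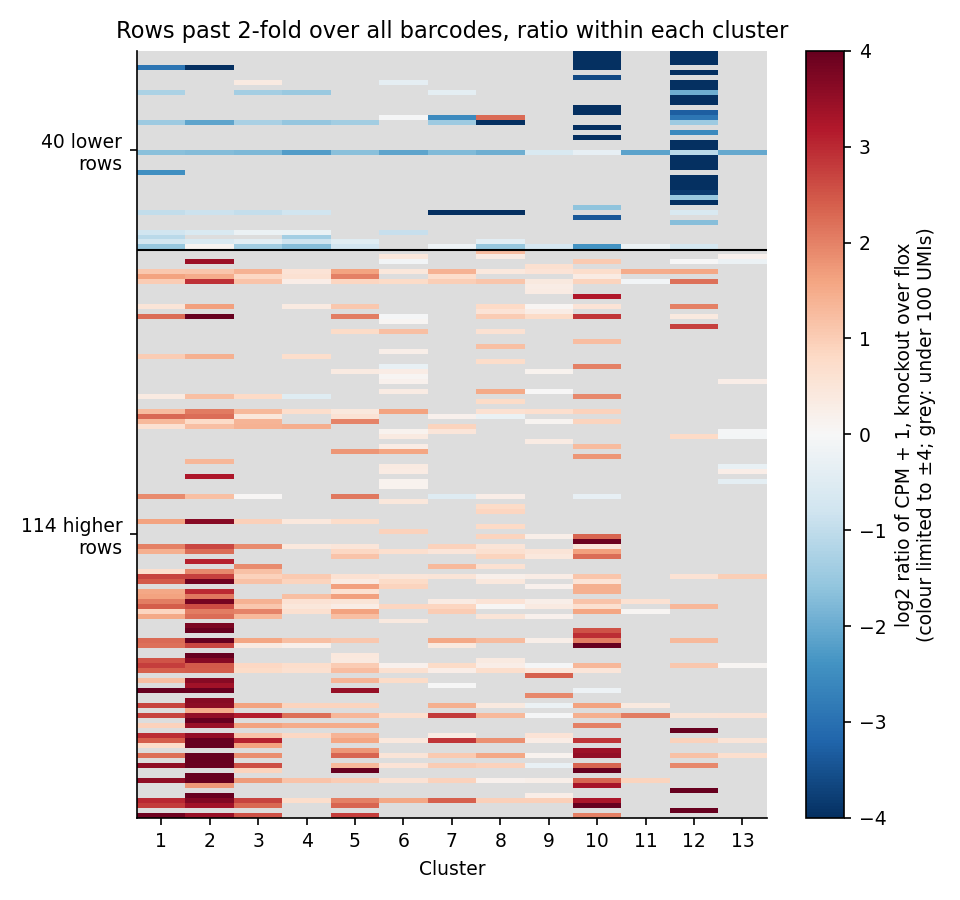
log2 ratio of CPM + 1 of cko_om over flox_om (colour, limited at 4 in either direction) within each cluster (horizontal axis) for the 154 features past 2-fold over all barcodes (vertical axis, 40 lower above and 114 higher below), grey where a feature had under 100 UMIs in a cluster. Cluster 12 holds the largest share of the UMIs of 27 of the lower features, and cluster 2 that of 43 of the higher ones. The same count over all features is not given.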

How the data were processed

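Unnormalised UMI counts per feature and barcode were deposited by the authors as whole numbers, made with Cell Ranger 7.1.0 and, by the submitters' processing notes, the mouse build mm10. The sources used here do not give the annotation release. The 3 tables hold 32285 rows each without names, matched by position: log2 CPM over rows correlated at 0.996 between flox_om and cko_om, and at 0.226 with the rows shifted by 1. No mitochondrial limit could be applied, and no marker or Trim59 check was made, although the design listed them. No value of the paper's pipeline beyond its settings was used, and its text does not treat the knockout.

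Barcodes with 500 to 5000 detected features were kept, and no doublets were removed. Scrublet (scanpy 1.11.5, Python 3.11.15) marked 1 flox_om and 2 cko_om barcodes by its automatic threshold, so the alternative removed the highest scores at 0.8% for each 1000 barcodes (724 and 678). In Seurat 5.3.0 (R 4.3.3), counts were scaled to 10000 UMIs and log-transformed, and 3000 variable features, 15 principal components and Louvain clusters at a resolution of 0.2 were used. flox_ctrl barcodes took the commonest cluster of their 30 nearest barcodes. Log2 ratios compared summed CPM with a pseudocount of 1 CPM, over features with 100 UMIs or more in the summed libraries and, within clusters, 50 barcodes of each. The named rows are the 2 largest and the 2 smallest ratios among features with at least 1000 UMIs. Intervals of shares and ratios are exact Clopper-Pearson 95% intervals. Those of differences between shares are 95% normal approximations. Equal cluster shares means barcodes weighted to the mean shares of both libraries. The code was tested on simulated data. The comparison and the rules were chosen with earlier results of these data known. Bulk RNA sequencing, flow cytometry and histology were not analysed here.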

Additional observations from a re-analysis of the deposited data

How the results depend on the processing

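No paired analysis was possible because there was 1 library per condition. No library was left out for the same reason, and the values below cover processing only. Leaving out each feature's richest barcode, and equal shares of clusters drawn without the differing features, were added after the data were seen. Of 187 values under alternatives, 113 stayed within their limits, 71 moved and 3 changed direction. The cause was not tested.

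The 154 features past 2-fold (114 higher, 40 lower) became 37 (27 and 10) when the pseudocount was 10 CPM, 81 (68 and 13) under a minimum of 1000 UMIs, where fewer features were compared, and 325 (300 and 25) with the mean over barcodes, which weights barcodes equally. Without the richest barcode 25 were lower, which counts features that first passed then. The 1323 pairs of feature and cluster (916 and 407) became 746 (541 and 205) with 10 CPM, 3370 (2327 and 1043) with at least 30 UMIs and 462 (304 and 158) with barcodes thinned to 1000 UMIs. A limit of 30 UMIs lets in more pairs, and thinning leaves fewer UMIs to count. These 2 counts therefore do not show by themselves whether a larger or smaller share of the pairs differed. Median detected features of flox_om and cko_om were 233 and 248 at 500 UMIs, 653 and 690 at 2000, 1148 and 1240 without thinning, and 394 and 416 with doublets removed. In each, cko_om was higher.

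The distance of 19.7 points between cluster shares was 10.3 with 30 principal components, 23.4 with 2000 variable features, 12.2 with doublets removed, 9.64 with thinning, 64.4 with components centred by library, 14.2 with flox_ctrl included and 16.4 without the features that differed within clusters. Same-library neighbours, 62.2% for flox_om and 57.7% for cko_om, were 68.0% and 63.8% with 30 components, 63.3% and 59.3% with 2000 features, 66.5% and 63.0% with thinning, 88.2% and 82.7% with centring and 56.5% and 52.2% without the differing features. With flox_ctrl the cko_om value was 56.6%. In the same 7 alternatives as for the distance, and then at a resolution of 0.8, the difference of cluster 1 was -2.89, -18.8, -7.49, -3.20, -38.6, -9.79, -12.4 and -10.6 points. For cluster 2 it was -2.46, a change of direction, with 30 components, 13.2 with 2000 features, 2.71 with doublets removed, 0.0369 with thinning, 4.53 with flox_ctrl, 6.17 without the differing features and 6.63 at a resolution of 0.8. Cluster 3 moved to -3.26 with 2000 features and to -25.0 with centring, where its largest part fell with cluster 4. At a resolution of 0.8 it moved to -1.18. Cluster 4 moved to -25.0 with centring and to -4.65 with thinning. Cluster 6 moved only at a resolution of 0.8, to 3.10, where it was split. Cluster 8 changed direction with thinning, -1.09, and with flox_ctrl, -1.03. In both, the cluster that took its largest part, 48.7% and 48.4% of it, also took most of cluster 5. At a resolution of 0.8 the difference of cluster 8 was 0.189. No alternative kept more than 62.7% of cluster 12 in a single cluster. Its difference moved to 0.969 with 30 components, -1.26 with doublets removed, 5.35 with thinning and 0.565 with flox_ctrl. In these its largest part fell with clusters 8, 5, 6 and 13 in turn. For the clusters whose intervals did not overlap, 69 of the 72 differences over all alternatives kept their direction. Direction alone was counted, so the 0.0369 points of cluster 2 with thinning and the clusters that fell together are among them.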

Other observations

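The row that stands directly after the most abundant lower feature in the tables was among the 114 higher ones, which was noticed after their values were seen. It had 224 UMIs in flox_ctrl, 122 in flox_om and 888 in cko_om, and its log2 ratio was 2.41. It was detected in about the same share of barcodes, 111 of flox_om (1.17%) and 109 of cko_om (1.18%). It was past 2-fold in clusters 5 and 10. In cluster 5 it stood at 18.7 CPM in flox_ctrl and 3.13 in flox_om, and the log2 ratio of cko_om over flox_om was 4.61. In cluster 10 it stood at 0.807 and 86.4 CPM in flox_om and cko_om. The most abundant lower feature itself was past 2-fold in cluster 5 and within it in cluster 10. A single cko_om barcode held 11.4% of the UMIs of the higher feature, and without the richest barcodes its log2 ratio was 2.27. What either row codes for cannot be told from the tables.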
